A study of Homo sapiens with 8 samples.

Results

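The 10 genes described here encode surface molecules with which a B cell gives T and NK cells a stimulatory, inhibitory or adhesive signal. They are CD80, CD86, CD40, CD274, CD70, CD58, CD48, ICAM1, TNFSF9 and ULBP1. They were taken by gene symbol, as 10 of the 63967 gene labels of the table. RNA-seq was done on Raji, a Burkitt lymphoma line labelled rituximab-sensitive, and on Raji-4RH, labelled rituximab-resistant. Each line received the solvent DMSO or 3 μM chidamide, a benzamide inhibitor of histone deacetylases, for 24 h. This gave 4 groups (Raji DMSO, Raji chidamide, Raji-4RH DMSO, Raji-4RH chidamide) of 2 libraries each, 8 in all. All cells were at passage 2 to 3 and were sorted by flow cytometry at harvest. Each side of the line comparison is a single cell line, and the labels do not say whether the 2 libraries of a group came from separate cultures, so p-values measure only the spread between these libraries, which may be technical.

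T cell activation needs a costimulatory signal beside the antigen receptor. CD80 (B7-1) and CD86 (B7-2) give it through CD28 and are braked by CTLA-4, and PD-L1, the product of CD274, inhibits T cells through PD-1. CD40 is the receptor on B cells for CD40 ligand of helper T cells and signals through TRAF proteins and NF-kB. CD70 binds CD27 and TNFSF9 (4-1BB ligand) binds 4-1BB, both receptors of the TNF family. CD58 (LFA-3) and CD48 bind CD2 and 2B4 of the immunoglobulin family, ICAM1 binds the integrin LFA-1, and ULBP1 binds the NK cell receptor NKG2D. Burkitt lymphoma cells carry a germinal centre B cell program in which several of these molecules are low, and NF-kB and interferon signalling are known inducers of ICAM1 and CD274.

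RefSeq promoters (GRCh38.p14) were found for 8 members, with 9 entries, and none for CD40 and CD70. Those of 5 members are shown because these stood for the patterns found below, with TNFSF9, CD86 and CD274 higher with chidamide in both lines, ICAM1 opposite in the lines and CD48 falling in Raji-4RH. Each covers the 250 bases before the start. Capitals mark matches on either strand to 6 motifs. These were the NF-kB consensus, the kB site of ICAM1 (GGAAATTCC), the interferon-gamma element GAS (TTCNNNGAA), the GC box (GGGCGG), the TATA motif (TATAAA) and the cyclic AMP element (TGACGTCA).
ICAM1 (chr19:10270870-10271119, plus strand): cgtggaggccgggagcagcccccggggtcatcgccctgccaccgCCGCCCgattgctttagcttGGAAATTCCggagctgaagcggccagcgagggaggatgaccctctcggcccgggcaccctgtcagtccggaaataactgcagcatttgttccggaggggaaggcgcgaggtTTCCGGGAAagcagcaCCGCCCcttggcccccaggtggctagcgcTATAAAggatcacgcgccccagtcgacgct
TNFSF9 (chr19:6530776-6531025, plus strand): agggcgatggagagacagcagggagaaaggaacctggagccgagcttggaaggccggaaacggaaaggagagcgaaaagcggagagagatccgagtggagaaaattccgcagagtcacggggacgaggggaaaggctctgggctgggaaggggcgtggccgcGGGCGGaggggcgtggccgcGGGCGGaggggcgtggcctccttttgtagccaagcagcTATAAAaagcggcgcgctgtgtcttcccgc
CD274 (chr9:5450292-5450541, plus strand): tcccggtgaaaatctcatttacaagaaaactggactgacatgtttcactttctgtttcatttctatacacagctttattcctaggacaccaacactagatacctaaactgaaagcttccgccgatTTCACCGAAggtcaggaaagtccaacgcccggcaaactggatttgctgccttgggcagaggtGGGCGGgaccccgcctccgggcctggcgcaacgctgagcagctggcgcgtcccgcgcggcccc
CD86 (chr3:122077534-122077783, plus strand): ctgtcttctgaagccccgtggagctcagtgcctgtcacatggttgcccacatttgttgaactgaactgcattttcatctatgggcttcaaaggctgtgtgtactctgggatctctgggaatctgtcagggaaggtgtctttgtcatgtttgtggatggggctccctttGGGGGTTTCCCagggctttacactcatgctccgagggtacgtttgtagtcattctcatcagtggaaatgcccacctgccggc
CD48 (chr1:160711823-160712072, minus strand): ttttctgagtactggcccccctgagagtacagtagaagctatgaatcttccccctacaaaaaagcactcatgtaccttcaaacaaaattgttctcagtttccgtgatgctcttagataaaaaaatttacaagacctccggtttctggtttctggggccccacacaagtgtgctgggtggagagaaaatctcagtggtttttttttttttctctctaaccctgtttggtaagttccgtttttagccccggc
ICAM1 and TNFSF9 each held a TATA motif whose first base lay at −30, which 10.7% of 35116 promoter windows of the same length held anywhere, and each held 2 GC boxes, a motif of 42.6% of the windows. ICAM1 also held its kB site at −186 (0.413% of windows) and a GAS match at −75 (6.57%). CD274 held a GAS match at −125 and a GC box at −63. The second CD86 start shown held 2 overlapping NF-kB consensus matches at −82 and −81, against 9.96% of windows with any. CD48 had no match, and its window had 43.2% GC and 4 CpG dinucleotides, against a median of 58% GC and 11 CpG over all windows. The cyclic AMP element was in 1.65% of windows and in none of the 9 member entries. CD58 held 3 GC boxes, in part overlapping, at 72% GC, and CD80 had no match at 56% GC. ULBP1 held an NF-kB consensus match at −42 and 2 GC boxes, and the first CD86 start had no match. A match is a description of letters and not a site of binding, and binding was not measured in these libraries.

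Library totals ranged from 13991697 reads in Raji-4RH chidamide replicate 1 to 21193441 in Raji-4RH DMSO replicate 2. Levels are FPKM, fragments scaled to the length of the gene and to the library total. In part of the table the values stand below the gene label, and all 10 members were in the range where label and values share a row. All 10 listed B cell markers were at 1 FPKM or more in every library, with a summed level of 1380 to 2378 FPKM. The 9 of 10 T or NK cell markers with values summed to 1.49 to 1.78 FPKM in Raji DMSO, 3.56 to 4.71 in Raji chidamide, 9.42 to 11.6 in untreated Raji-4RH and 27.9 to 35.6 in treated Raji-4RH. Of these markers, CD3D was at 0 reads in both DMSO groups and CD8A in both Raji groups. CD7 (5 rows below its label) was at a mean of 7.66 and 21.1 FPKM in Raji-4RH DMSO and chidamide, CD3E (14 rows below) at 0.724 and 3.52, and NKG7 rose in both lines. The 7 of 8 monocyte, macrophage or dendritic cell markers with values summed to 1.1 to 1.3, 10.8 to 10.9, 6.05 to 7.07 and 17.1 to 17.6 FPKM in the same order, with CLEC9A at 0 reads in both DMSO groups. In untreated Raji-4RH most of this sum was CD1C (3 rows below its label), at 5.76 and 4.83 FPKM. With chidamide CSF1R (7 rows below) rose from 0.0682 to 4.85 FPKM in Raji and from 0.108 to 3.01 in Raji-4RH, ITGAM (4 rows below) from 0.0620 to 3.77 and from 0.0929 to 2.40, and LYZ from 0.142 to 4.10 in Raji-4RH. The part of these marker levels in the results was not tested. In bulk RNA, a change in the share of cells with a transcript and a change in the amount per cell cannot be told apart.

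CD70 was the highest of the 10 transcripts per length in each of the 4 groups, and ULBP1 or CD274 the lowest. In Raji DMSO the order of mean FPKM was CD70 (89.3), CD48 (31.3), TNFSF9 (26.7), CD40 (17.3), ICAM1 (13.9), CD86 (9.42), CD58 (6.58), CD80 (4.54), CD274 (0.164) and ULBP1 (0). No neighbours in that order overlapped between libraries. In Raji-4RH DMSO it was CD70 (70.0), CD48 (27.1), CD40 (13.1), TNFSF9 (9.73), CD86 (6.14), ICAM1 (5.68), CD58 (2.30), CD80 (0.593), ULBP1 (0.113) and CD274 (0.0634), and the last 2 overlapped. CD70 stood above 96.5% of the 10710 tested genes in Raji DMSO, whereas CD80 stood above 40.2% there and above 8.95% in Raji-4RH DMSO. After chidamide the order changed in both lines. TNFSF9 moved to the second place, at 78.1 FPKM in Raji and 36.4 in Raji-4RH, and CD48 moved to the sixth in Raji, where it overlapped CD86 and CD86 overlapped ICAM1, and to the fifth in Raji-4RH. ICAM1 overlapped CD58 in Raji-4RH chidamide.

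**Figure D1:**
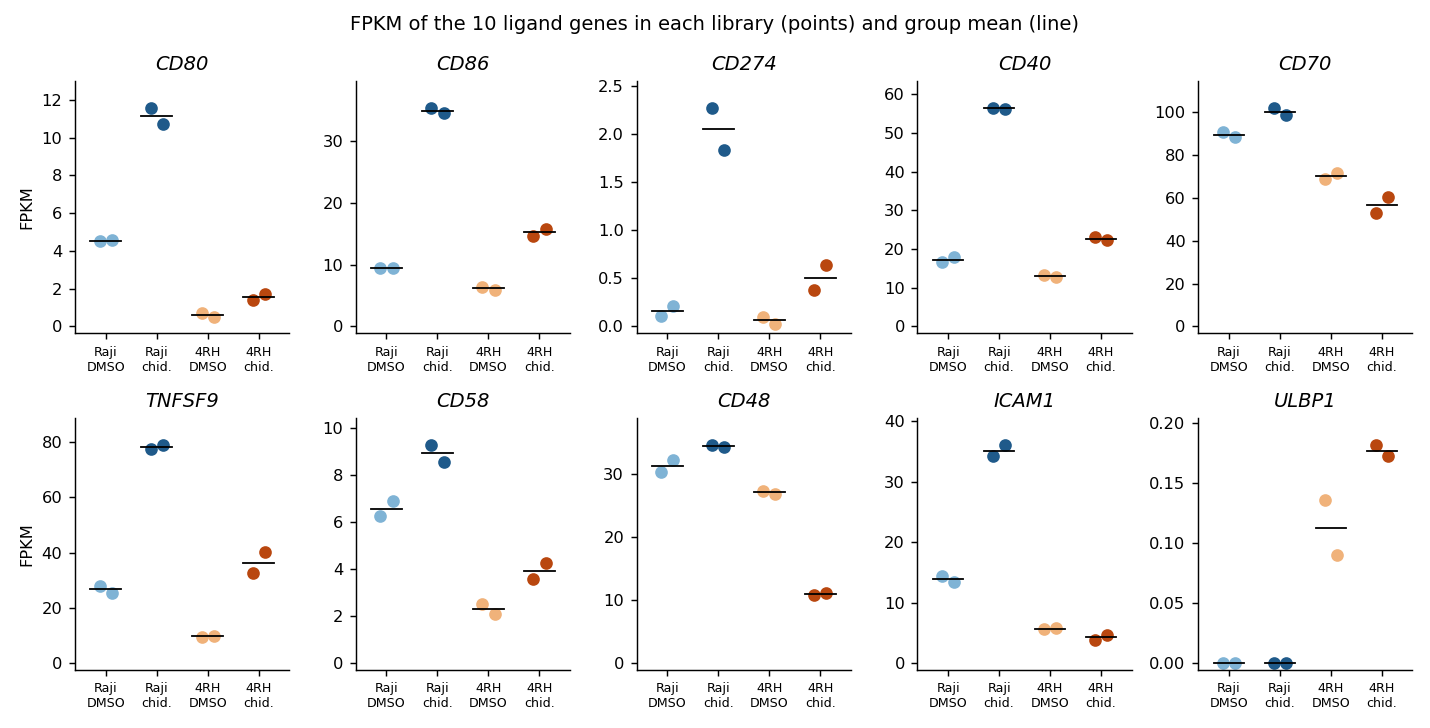
FPKM (y axis, linear, separate scale per gene) of the 10 ligand genes in the 2 libraries (points) of each of 4 groups, with the group mean as a line; 4RH is Raji-4RH and chid. is chidamide. CD86, CD40 and TNFSF9 were higher with chidamide in both lines, CD48 fell in Raji-4RH from a mean of 27.1 to 10.9, and ICAM1 rose in Raji from 13.9 to 35.2.

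To ask what chidamide did in each line, the groups were compared with limma on log2(FPKM + 1), on which the change of low genes is understated. In Raji, 8 of the 9 members tested rose and none fell, and the ninth, CD70, did not pass the adjusted p threshold of 0.05. In Raji-4RH, 6 rose and 3 fell. Among all 10710 genes tested, 31.5% were called higher and 28.5% lower in Raji, and 43.3% higher and 31.6% lower in Raji-4RH, so calls were common in both lines. The median change of the 9 members was 1.28 in Raji, against 0.02 for all genes, and 0.57 in Raji-4RH, against 0.09. The members and the gene lists below were chosen with earlier results of these data known. Their counts and medians beside those of all genes are thus descriptions. ULBP1 did not reach 1 FPKM in 2 libraries and was not tested. CD274 passed this filter only through the 2 Raji chidamide libraries, so its place in counts that use that group is no independent support. With a filter on a mean of at least 1 FPKM, 7 members rose in Raji, and 5 rose and 3 fell in Raji-4RH. Quantile normalization moved the median of all genes in Raji-4RH to −0.02, a shift of over 0.1, and the share of calls that were higher there from 57.9% to 47.8%. After it, 4 members were called higher and 2 lower in Raji-4RH, and 9 higher in Raji. With 2 libraries against 2, an exact two-sided permutation test of a single gene cannot give a p below 0.33, so calls rest on the spread that limma shares over genes. The fit also shares 1 spread over the 4 groups, so a gene's standard error (SE) is the same in both lines. The Raji-4RH chidamide libraries were the least alike pair (r = 0.9923, against 0.9978 to 0.9985 in the other groups). With only the libraries compared, the SE of CD86 was 0.072 in Raji-4RH and 0.037 in Raji.

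**Figure D2:**
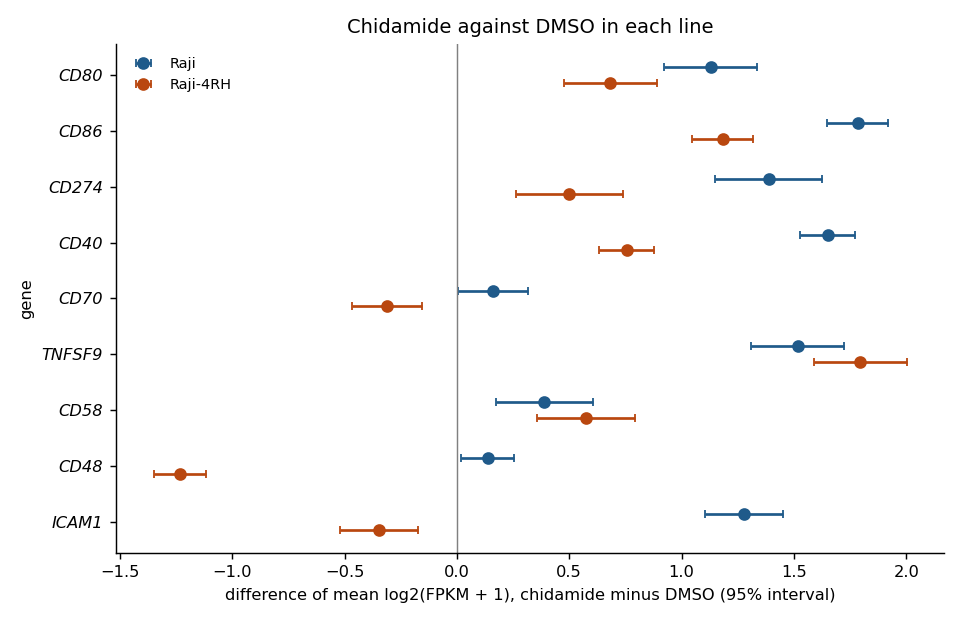
Difference of mean log2(FPKM + 1), chidamide minus DMSO (x axis), for the 9 tested ligand genes (y axis) in Raji and Raji-4RH; points are limma estimates and bars their 95% intervals. The points of CD48 (0.14 and −1.23) and ICAM1 (1.28 and −0.34) lie on opposite sides of 0 in the 2 lines, those of CD86, CD40 and TNFSF9 lie to the right in both, and after quantile normalization CD274 in Raji-4RH moves to −0.04.

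The B7 ligands CD86 and CD80 rose with chidamide. CD86, the more rapidly induced B7 costimulator, was at 9.38 and 9.46 FPKM in Raji DMSO and at 35.2 and 34.5 in Raji chidamide. It was at 6.37 and 5.91 FPKM in untreated Raji-4RH and at 14.6 and 15.8 in the treated line. The groups did not overlap in either line, and each line's treated libraries were above all its untreated ones. The mean was 3.70-fold higher with chidamide in Raji (log2 difference 1.78 ± 0.06 SE, adjusted p = 2.55e-07, limma) and 2.47-fold higher in Raji-4RH (1.18 ± 0.06, adjusted p = 4.95e-07). CD80, which binds CD28 and CTLA-4 more tightly than CD86 does, was at 4.52 and 4.56 FPKM in Raji DMSO and at 11.6 and 10.7 with chidamide. In Raji-4RH it was lower, at 0.700 and 0.486 FPKM in DMSO (42 and 33 reads) and 1.38 and 1.73 with chidamide (62 and 102 reads). The change on the log2(FPKM + 1) scale was 1.13 ± 0.09 in Raji (adjusted p = 1.74e-05) and 0.68 ± 0.09 in Raji-4RH (adjusted p = 0.000148), while the ratio of mean FPKM was similar in size, 2.45 and 2.63. After quantile normalization the Raji-4RH change was 0.04 (adjusted p = 0.724). CD80 shares 798 exon bases with TIMMDC1 on the opposite strand, and whether counting used strand is not given in the sources used here. TIMMDC1 was at a mean of 27.9 and 34.5 FPKM in Raji DMSO and chidamide and at 35.1 and 44.8 in Raji-4RH. It rose with chidamide in both lines (0.29 and 0.34), and its part in the CD80 values was not tested.

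CD274, which encodes the checkpoint ligand PD-L1, was close to absent without chidamide. In Raji DMSO it had 9 and 18 reads (0.111 and 0.217 FPKM), and untreated Raji-4RH had 8 and 2 reads (0.104 and 0.0230 FPKM). With chidamide it had 192 and 157 reads in Raji (2.27 and 1.83 FPKM) and 22 and 48 in Raji-4RH (0.383 and 0.634 FPKM). The treated and untreated libraries did not overlap in either line, and the treated Raji-4RH libraries remained below the treated Raji ones. The mean was 12.5-fold higher with chidamide in Raji and 8.02-fold higher in Raji-4RH, where the pooled DMSO level rests on 10 reads (0.0609 FPKM, exact 95% Poisson interval 0.0292 to 0.112, which covers counting error only). Without Raji-4RH DMSO replicate 1 the fold was 22.1, and without replicate 2 it was 4.90. On the log2(FPKM + 1) scale limma gave 1.39 ± 0.10 in Raji (adjusted p = 1.26e-05) and 0.50 ± 0.10 in Raji-4RH (adjusted p = 0.00222), and the latter changed sign to −0.04 (adjusted p = 0.774) after quantile normalization. CD274 passed the level filter only through the Raji chidamide libraries, so its call in Raji is no independent support. On recovered reads with voom, a fit on log2 reads scaled to the library total, the changes were 3.66 and 3.24. Its neighbour PDCD1LG2, which encodes PD-L2, had 2 to 14 reads in each library, from values 14 rows below the label, and was under the filter.

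CD40 and the TNF family ligands did not move as a block. CD40, the receptor through which helper T cells license B cells, rose in both lines. It was at 16.7 and 17.9 FPKM in Raji DMSO and at 56.4 and 56.3 with chidamide, a difference of 1.65 ± 0.05 (adjusted p = 2.55e-07, limma). In Raji-4RH it was at 13.2 and 12.9 FPKM in DMSO and at 23.2 and 22.3 with chidamide, a difference of 0.76 ± 0.05 (adjusted p = 3.39e-06). The untreated levels of the lines were 1.33-fold apart and the treated ones 2.48-fold. TNFSF9, the ligand of the T cell costimulator 4-1BB, was at 27.9 and 25.5 FPKM in Raji DMSO and at 77.3 and 78.9 with chidamide. In Raji-4RH it was at 9.48 and 9.97 FPKM in DMSO and at 32.8 and 40.0 with chidamide. No library overlapped between DMSO and chidamide, and the change was 1.52 ± 0.09 in Raji (2.93-fold of the mean FPKM, adjusted p = 3.72e-06) and 1.79 ± 0.09 in Raji-4RH (3.74-fold, adjusted p = 5.48e-07). It was the largest rise of a member in Raji-4RH on this scale and after quantile normalization (1.99), and was below that of CD274 with a pseudocount of 0.1 (1.89 against 1.91) and with voom (1.90 against 3.24). CD70, the ligand of CD27, was at 90.3 and 88.3 FPKM in Raji DMSO and 102 and 98.4 with chidamide, and at 68.6 and 71.5 in Raji-4RH DMSO and 52.6 and 60.1 with chidamide. Its fall in Raji-4RH (−0.31 ± 0.07, adjusted p = 0.00308) was −0.01 after quantile normalization (adjusted p = 0.881). In Raji its change of 0.16 ± 0.07 had an adjusted p of 0.0726, and it passed the threshold without either Raji-4RH chidamide library (adjusted p = 0.00621 without replicate 1 and 0.00617 without replicate 2), after quantile normalization (0.26, adjusted p = 0.0138), with voom (adjusted p = 0.0442) and with only the libraries compared (adjusted p = 0.0135). TNFSF14, the gene next to CD70 in the TNF ligand cluster on chromosome 19, had 0 to 25 reads per library and was under the filter.

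Among the adhesion ligands, CD48 and ICAM1 fell in Raji-4RH. CD48, the SLAM family partner of CD2 and 2B4, was at 27.3 and 26.9 FPKM in Raji-4RH DMSO and at 10.8 and 11.1 with chidamide. It was at 30.4 and 32.1 FPKM in Raji DMSO and at 34.6 and 34.3 with chidamide. The treated Raji-4RH libraries thus stood apart from the other 6. The fall in Raji-4RH was 2.47-fold in mean FPKM (log2 difference −1.23 ± 0.05, adjusted p = 2.18e-07, limma). The small rise in Raji (0.14 ± 0.05, adjusted p = 0.0471) did not keep its call in 8 alternatives. They included the replicate block (adjusted p = 0.0758), centring on medians (0.10, adjusted p = 0.131) and the fits without Raji DMSO replicate 1 (adjusted p = 0.215), without Raji chidamide replicate 1 (0.179) or 2 (0.149) and without Raji-4RH DMSO replicate 1 (0.0827) or 2 (0.0825). CD48 shares 976 exon bases with the antisense gene AL121985.1.

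ICAM1, the LFA-1 ligand and an NF-kB target, moved in opposite directions in the lines. It was at 14.4 and 13.5 FPKM in Raji DMSO and at 34.2 and 36.1 with chidamide, and at 5.61 and 5.74 in Raji-4RH DMSO and 3.90 and 4.64 with chidamide. Groups did not overlap in either line. The rise in Raji was 2.53-fold (log2 difference 1.28 ± 0.08, adjusted p = 3.59e-06, limma) and the fall in Raji-4RH 1.33-fold (−0.34 ± 0.08, adjusted p = 0.00298). The fall held under each alternative, with an adjusted p of 0.000225 to 0.0231. ICAM1 shares 61 and 815 exon bases with the antisense genes AC011511.2 and AC011511.5. CD58, the other CD2 ligand, rose in both lines from lower levels. It was at 6.25 and 6.90 FPKM in Raji DMSO and 9.28 and 8.56 with chidamide (0.39 ± 0.09, adjusted p = 0.00718), and at 2.51 and 2.09 in Raji-4RH DMSO and 3.57 and 4.26 with chidamide (0.57 ± 0.09, adjusted p = 0.000586). The call in Raji was lost without Raji DMSO replicate 1 (adjusted p = 0.0566) and without Raji chidamide replicate 1 (0.0560).

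ULBP1, a stress-induced ligand of NKG2D, was detected in Raji-4RH only at a few reads and not in Raji. It had 0 reads in all 4 Raji libraries, which allows up to 0.0239 FPKM in Raji DMSO and 0.0230 in Raji chidamide over the group. Raji-4RH libraries had 8 and 6 reads in DMSO and 8 and 10 with chidamide, or 0.136, 0.0901, 0.182 and 0.173 FPKM. Against 3 counts in the Raji group, the pooled Raji-4RH level was 4.66-fold higher in DMSO and 7.67-fold higher with chidamide. These folds take the Raji-4RH reads as exact, so the gap may be smaller. The exact 95% Poisson intervals of the pooled Raji-4RH level, 0.0610 to 0.187 FPKM in DMSO and 0.105 to 0.279 with chidamide, overlap. When no level filter was used, limma called ULBP1 higher with chidamide in Raji-4RH (0.08 on log2(FPKM + 1), adjusted p = 0.0172) and higher in Raji-4RH than in Raji in DMSO (0.15, adjusted p = 0.00131) and with chidamide (0.24, adjusted p = 0.000128), on at most 10 reads per library. Of its neighbours in the NKG2D ligand cluster on chromosome 6, whose values stand 1 or 3 rows below their labels, ULBP2 rose in both lines (0.928 to 2.61 FPKM in Raji and 0.815 to 2.91 in Raji-4RH) and so did ULBP3 (0.203 to 1.17 and 3.61 to 8.56). RAET1E had 1 to 7 reads in each Raji library and 28 to 74 in each Raji-4RH library, and was under the filter, as was RAET1L.

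Whether the drug effect differed between the lines was asked with the interaction term, the Raji-4RH effect minus the Raji effect. It was negative for 7 of 9 members and positive for none at an adjusted p under 0.05 (limma), against 21.7% of all genes called lower and 27.2% called higher. The member median was −0.60, against 0.04 for all genes. CD274, among the 7, passed the level filter only through the Raji chidamide libraries. The largest differences were those of ICAM1 (−1.62 ± 0.11, adjusted p = 1.79e-05) and CD48 (−1.37 ± 0.07, adjusted p = 8.04e-06). CD40 followed at −0.89 ± 0.08 (adjusted p = 5.30e-05) and CD86 at −0.60 ± 0.08 (adjusted p = 0.000606). These 4 kept direction and call under every alternative for a single gene's test. CD70 gave −0.47 ± 0.10 (adjusted p = 0.00457), and −0.27 (adjusted p = 0.0527) after quantile normalization.

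For the 2 lowest B7 members the answer depended on the scale. CD274 gave −0.89 ± 0.15 on log2(FPKM + 1) (adjusted p = 0.00155), −1.14 with a pseudocount of 0.1 (adjusted p = 0.0704) and −0.42 with voom on recovered reads (adjusted p = 0.709). CD80 gave −0.45 ± 0.13 (adjusted p = 0.0194), −0.01 with a pseudocount of 0.1 (adjusted p = 0.984) and 0.15 with voom (adjusted p = 0.702). The CD80 call was also lost without Raji DMSO replicate 1 (adjusted p = 0.0579) or 2 (0.0554), Raji chidamide replicate 1 (0.0736) or Raji-4RH DMSO replicate 1 (0.0698). TNFSF9 (0.28 ± 0.13, 95% interval −0.01 to 0.57, adjusted p = 0.104) and CD58 (0.18 ± 0.13, −0.12 to 0.49, adjusted p = 0.284) were not called. TNFSF9 passed after quantile normalization (0.39, adjusted p = 0.0425) and without Raji-4RH chidamide replicate 1 (0.42, adjusted p = 0.00346), and CD58 turned to −0.07 (adjusted p = 0.658) after quantile normalization.

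**Figure D3:**
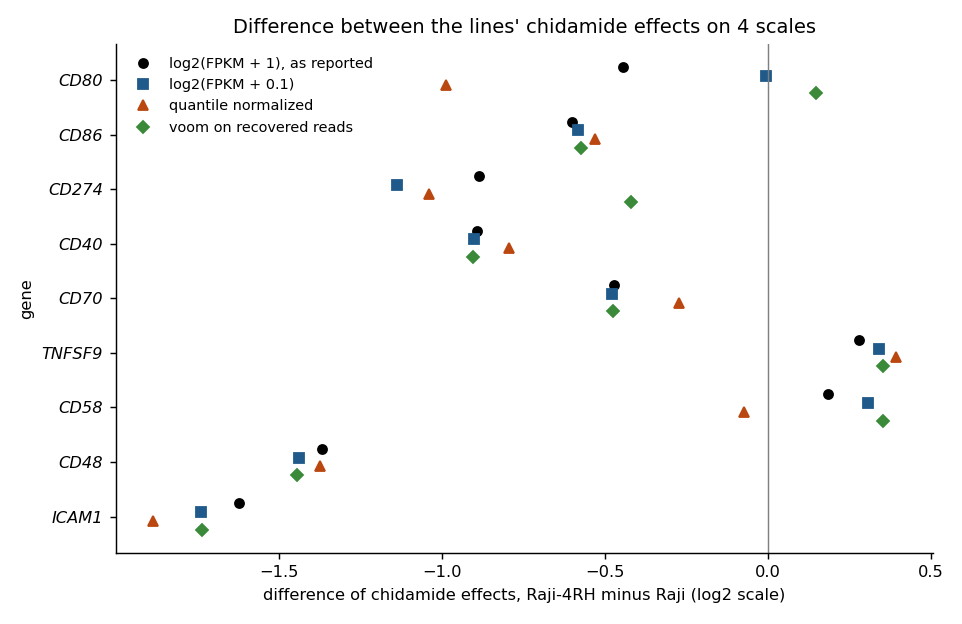
Difference of the chidamide effects, Raji-4RH minus Raji (x axis, log2 scale), for the 9 tested ligand genes (y axis) on 4 scales; each marker is 1 limma estimate. The markers of ICAM1, CD48, CD40, CD86 and CD70 stay left of 0 on all 4, CD80 runs from −0.99 after quantile normalization to 0.15 with voom, and CD58 lies left of 0 (−0.07) after quantile normalization only.

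Without drug most of the tested members were lower in the resistant line. In DMSO, 8 of 9 members were lower in Raji-4RH than in Raji and none higher, against 32.4% of all genes lower and 41.2% higher, and the member median was −0.55 against 0.06 for all genes. Of the 10 B cell markers, 7 were also lower in Raji-4RH and 1 higher in DMSO (median −0.45), and 7 lower and 2 higher with chidamide (median −0.66), and their part in the result was not tested. CD80 differed most, at 7.66-fold lower mean FPKM in Raji-4RH (log2 difference −1.80 ± 0.09, adjusted p = 3.95e-07, limma). TNFSF9 was 2.74-fold lower (−1.37 ± 0.09, adjusted p = 2.20e-06), CD58 2.86-fold lower (−1.20 ± 0.09, adjusted p = 6.51e-06) and ICAM1 2.45-fold lower (−1.16 ± 0.08, adjusted p = 2.01e-06). CD86 (−0.55), CD40 (−0.38), CD70 (−0.35) and CD48 (−0.20) differed by less. The CD48 call was lost without Raji-4RH DMSO replicate 2 (−0.19, adjusted p = 0.0519). CD274 was not called (−0.13, adjusted p = 0.283), with 27 reads against 10 over the groups, and was called after quantile normalization (−0.39, adjusted p = 0.0106).

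With chidamide all 9 tested members were lower in Raji-4RH than in Raji, against 35% of all genes lower and 44.3% higher, with a member median of −1.15 against 0.09. This comparison and the one in DMSO share no library, but each shares libraries with the drug comparisons. Of the 9, CD274 was tested only because the Raji chidamide libraries passed the level filter. ICAM1 was 8.24-fold lower (−2.78 ± 0.08, adjusted p = 1.07e-08, limma), CD80 7.15-fold (−2.25 ± 0.09, adjusted p = 8.77e-08) and CD48 3.15-fold (−1.57 ± 0.05, adjusted p = 2.92e-08). CD274 was 4.03-fold lower (−1.02 ± 0.10, adjusted p = 2.54e-05), with 349 reads in the Raji and 70 in the Raji-4RH group. The smallest gap was that of CD70, at 1.77-fold (−0.82 ± 0.07, adjusted p = 7.22e-06). The ratio between the lines changed most for ICAM1, from 2.45-fold to 8.24-fold, and for CD48, from 1.15-fold to 3.15-fold, while that of CD80 was 7.66-fold without and 7.15-fold with the drug.

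**Figure D4:**
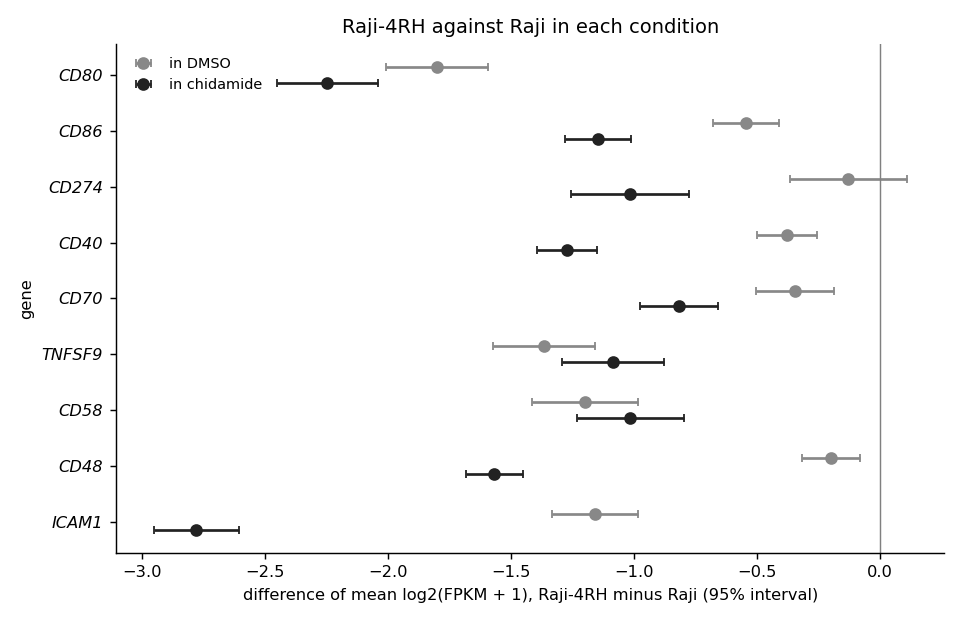
Difference of mean log2(FPKM + 1), Raji-4RH minus Raji (x axis), for the 9 tested ligand genes (y axis) in DMSO and in chidamide; points are limma estimates and bars their 95% intervals. All points lie left of 0, and ICAM1 (−1.16 and −2.78) and CD48 (−0.20 and −1.57) lie farther left in chidamide.

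The members fell into patterns over the 8 libraries, given here as descriptions, since the libraries share 4 groups and values within a group are alike. CD86, CD40, CD274 and TNFSF9 had Pearson correlations of 0.888 to 0.988 with each other on log2(FPKM + 1). CD80 and CD58 had 0.982, CD70 and CD48 0.90, and CD48 and TNFSF9 0.03. Among the 6614 tested genes whose mean reached 5 FPKM, those nearest in pattern were MS4A1 (r = 0.998) and PRKACA (0.996) for CD80, CAT (0.993) and GPCPD1 (0.993) for CD86, SGK1 (0.996) and RAB8B (0.995) for CD40, and WASF2 (0.985) and CD40 (0.984) for CD274. They were SCFD2 (0.994) and FBXO42 (0.992) for CD70, BUB1 (0.998) and ORC6 (0.996) for CD48, and RHOG (0.998) and DUSP2 (0.994) for ICAM1.

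The signalling that CD40 and TNF receptors use runs through TRAF adaptors to NF-kB. Of 14 of its genes, all tested, chidamide raised 8 and lowered 1 in Raji, and raised 8 and lowered 3 in Raji-4RH, with medians of 0.46 and 0.22. Among all genes 31.5% were raised and 28.5% lowered in Raji, and 43.3% and 31.6% in Raji-4RH, to which 8 and 3 of 14 are not far. The interaction was negative for 8 and positive for none, against 21.7% and 27.2% of all genes, with a median of −0.30. As the list was chosen with earlier results of these data known, these counts are descriptions. TNFAIP3, the NF-kB feedback inhibitor A20, was at 2.54 and 2.90 FPKM in Raji DMSO and 28.98 and 29.3 with chidamide, and at 1.92 and 1.82 and then 8.72 and 9.15 in Raji-4RH. Its log2 changes were 3.02 and 1.79, and the interaction −1.23 (adjusted p = 2.93e-05, limma). TRAF1, an adaptor of TNF receptors and itself an NF-kB target, was at 5.87 and 5.95 FPKM in Raji DMSO, 36.2 and 36.0 with chidamide, and 4.25 and 4.17 and then 5.73 and 7.32 in Raji-4RH, with an interaction of −1.90 (adjusted p = 1.93e-05). NFKBIA, the inhibitor IkB alpha, had an interaction of −1.27 (adjusted p = 3.63e-05). BIRC3, the ubiquitin ligase cIAP2, rose in both lines (1.28 in Raji and 1.18 in Raji-4RH, interaction −0.09, adjusted p = 0.43), from 88.4 FPKM in Raji DMSO and 21.8 in Raji-4RH DMSO. In DMSO 8 of the 14 were lower in Raji-4RH and 5 higher, against 32.4% and 41.2% of all genes. BIRC3 (−1.97) and REL (−1.09, values 3 rows below the label) were among the lower and NFKBIA (1.08) among the higher. With chidamide 10 were lower in Raji-4RH and 3 higher, against 35% and 44.3% of all genes.

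**Figure D5:**
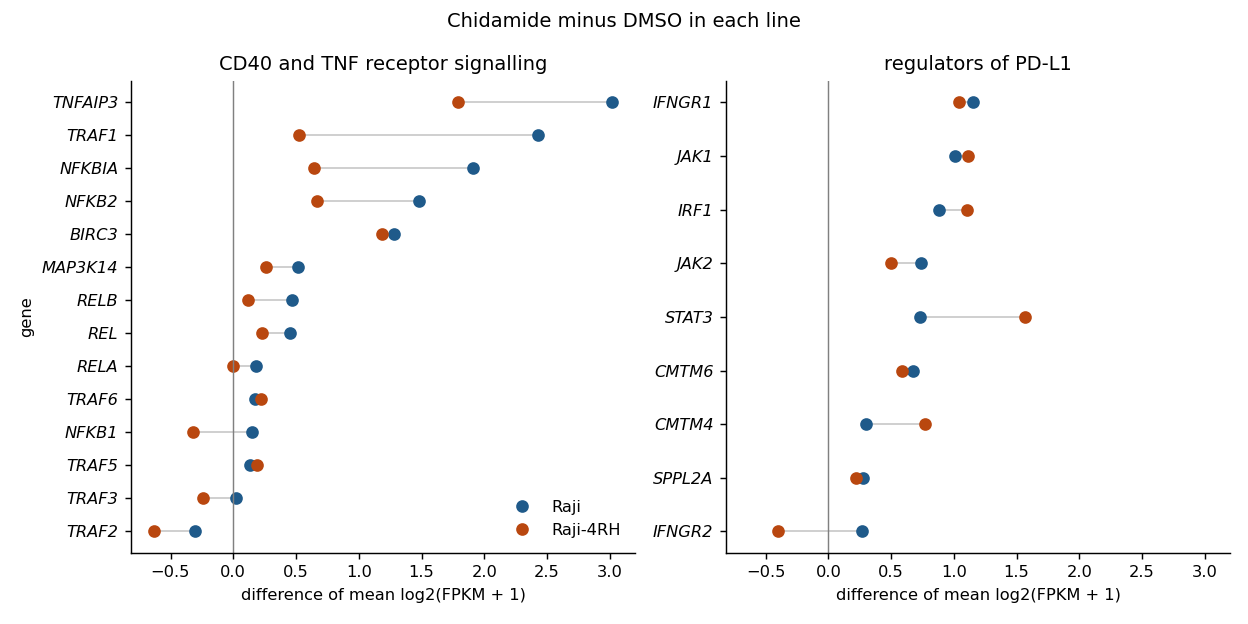
Difference of mean log2(FPKM + 1), chidamide minus DMSO (x axis), in Raji and Raji-4RH for the 14 CD40 and TNF receptor signalling genes (left) and 9 of the 10 regulators of PD-L1 (right), with a line between the 2 values of a gene. TNFAIP3 (3.02 in Raji, 1.79 in Raji-4RH) and TRAF1 (2.42 and 0.52) lie farther right in Raji, and STAT3 (0.73 and 1.56) lies farther right in Raji-4RH.

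Of 10 genes that set the transcription or surface stability of PD-L1, chidamide raised 10 in Raji and 9 in Raji-4RH, where it lowered IFNGR2, against 31.5% and 43.3% of all genes raised. The medians were 0.74 and 0.72. The interaction was called for 2 in each direction, against 27.2% of all genes higher and 21.7% lower. This list was also chosen with earlier results of these data known, so its counts beside the all-gene shares are descriptions. After quantile normalization 8 were raised in Raji, and 6 raised and 1 lowered in Raji-4RH. STAT3, from values 4 rows below the label, rose more in Raji-4RH (0.73 in Raji and 1.56 in Raji-4RH, interaction 0.83, adjusted p = 5.43e-05, limma). IRF1, the factor that joins interferon to the CD274 promoter, rose in both lines (0.89 and 1.10) and was lower in Raji-4RH both in DMSO (−1.24) and in chidamide (−1.02). IFNGR1 (1.16 in Raji and 1.04 in Raji-4RH) and JAK1 (1.01 in Raji and 1.11 in Raji-4RH, 3 rows below the label) also rose. IFNGR2 (3 rows below the label) had an interaction of −0.67 (adjusted p = 0.000473). CMTM4, a PD-L1 stabilizer (7 rows below the label), was lower in Raji-4RH in DMSO (−1.51).

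Of 41 related ligands and surface proteins, 39 had values and 22 passed the level filter. Chidamide raised 14 and lowered 3 of these in Raji-4RH (11 and 6 after quantile normalization) and raised 13 and lowered 2 in Raji, with medians of 0.57 (0.16 after quantile normalization) and 0.45. All-gene shares were 43.3% higher and 31.6% lower in Raji-4RH, and 31.5% and 28.5% in Raji. The interaction was called higher for 5 and lower for 10, against 27.2% and 21.7% of all genes. Some of the 22 passed the filter only through the groups where they were high. Among these were VSIR in Raji-4RH chidamide, TNFSF15 in Raji chidamide, LY9 with chidamide and TNFSF8 in Raji-4RH. Their calls for those groups are no independent support. Between the lines in DMSO, 11 related ligands were higher and 7 lower in Raji-4RH (median 0.15), against 41.2% and 32.4% of all genes. With chidamide 10 were called in each direction (median 0.04), against 44.3% of all genes higher and 35% lower. Near CD48 on chromosome 1, the SLAM genes SLAMF7 and LY9 rose in both lines (1.85 and 1.52 in Raji, 2.36 and 1.95 in Raji-4RH). SLAMF1 rose in Raji (1.74). Its change in Raji-4RH was 0.58, and −0.15 (adjusted p = 0.181, limma) after quantile normalization. The SLAMF1 interaction was −1.16 (adjusted p = 0.000314, limma), and −0.53 (adjusted p = 0.197) with voom. CD84 was called lower in both lines (−0.18 in Raji and −0.89 in Raji-4RH), and SLAMF6 (3 rows below the label) higher in both (0.65 and 0.20, the latter lost on median-centred samples, adjusted p = 0.15). Of the SLAM genes tested, CD84 thus shared the fall of CD48 in Raji-4RH. CD244, the 2B4 gene in the same cluster, had 1 to 38 reads per library and was under the filter. Of the ICAM1 neighbours on chromosome 19, ICAM5 moved as ICAM1 did (0.43 in Raji, −0.46 in Raji-4RH, interaction −0.89, adjusted p = 0.00412), ICAM3 was called in neither line, and ICAM4 had 0 reads. VSIR, which encodes the inhibitory ligand VISTA, was at 0 to 0.04 FPKM in group mean except in Raji-4RH chidamide, where it was at 1.25. TNFSF8, the CD30 ligand, was at 8.93 FPKM in Raji-4RH DMSO and 0.00854 in Raji DMSO (difference 3.30, adjusted p = 1.12e-09). NCR3LG1, the ligand B7-H6 of an NK cell receptor (11 rows below the label), was lower in Raji-4RH in DMSO (−2.94). With chidamide it fell in Raji (−0.61) and rose in Raji-4RH (0.60), with an interaction of 1.215 (adjusted p = 2.09e-05, limma).

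The receptors for these ligands are mostly genes of T and NK cells. Of 14 listed, 13 had values and 6 passed the level filter, with 4 raised and 1 lowered by chidamide in Raji-4RH, and 3 raised and 1 lowered in Raji, and medians of 1.05 and 0.28, against 43.3% and 31.5% of all genes raised in the 2 lines. The interaction was called higher for 3 and lower for 1, against 27.2% and 21.7% of all genes. CD28 passed the filter only through chidamide libraries and PDCD1 only through Raji-4RH libraries, so their calls for those groups are no independent support. With voom the interaction was called higher for 2 and lower for none, and PDCD1 was not called (1.86, adjusted p = 0.24). CD27, the receptor of CD70 and also a B cell gene, was at 119 FPKM in Raji DMSO, 36.3 in Raji chidamide, 22.5 in untreated Raji-4RH and 10.8 in treated Raji-4RH (1 row below the label). PDCD1, which encodes the PD-L1 receptor PD-1, was at 0 FPKM in the 4 Raji libraries and at 1.28 and 4.43 in Raji-4RH DMSO and chidamide (11 rows below the label). CD28 (5 rows below) was at 0.170 FPKM in Raji DMSO and 4.58 in Raji chidamide, and at 0.0109 and 2.05 in Raji-4RH. ITGB2, the beta chain of LFA-1 (3 rows below), rose in both lines (1.36 in Raji-4RH), and so did HCST, the adaptor of NKG2D (0.56 in Raji and 0.84 in Raji-4RH). The summed T or NK cell markers were also highest in treated Raji-4RH (27.9 to 35.6 FPKM), and their part in these levels was not tested.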

How the data were processed

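RNA was prepared with a NEBNext Ultra kit and sequenced on a HiSeq X. The authors deposited 1 table of FPKM for each gene in each library, with the gene's joined exon length in bases. The submitters' processing notes name GRCh38, HISAT2 2.0.5, SAMtools 1.7, HTSeq 0.9.1 and DESeq2 1.22.2, with roles not given in the sources used here. Multiplied by length and library total, 100% of non-zero values were whole within 0.01 reads, which gave the reads. The last 662 rows repeat the first 662, and values stand below labels by a distance that grows down the table. A placement rule in 12 ranges gave values to 18143 of 63967 labels (90.7% to 93.2% of reads), and FPKM were rescaled to the gene's own length. As a check, the rule's distance gave 186 housekeeping labels their highest median in 10 of the 12 ranges (the other 2 held 1 such label each). All 10 members share a row with their values.

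Values were tested with limma 3.58.1 in R 4.3.3 (lmFit, trended eBayes). A single model of log2(FPKM + 1) covered the 8 libraries, for the 10710 genes at 1 FPKM or more in at least 2 libraries, with Benjamini-Hochberg adjustment over all of them and calls at 0.05. The fit had no replicate block, and groups came from the sample labels. The test was checked on simulated data with 200 changed genes. Alternatives were a pseudocount of 0.1, no filter, a mean of 1 FPKM, quantile normalization, median centring, no trend, limma voom on recovered reads, a replicate block, the compared libraries alone, a log2 change of at least 1, rows as deposited and leaving out each library. A crossed block was added after seeing the data. The members and gene lists were chosen with earlier results of these data known. From each list the text names at most the 3 called genes with the largest change and no overlap per comparison, and the family neighbours of members, whatever their values; 1 gene of the PD-L1 list is not reported here. Nearest patterns are given for members called in the interaction. Intervals cover counting error only.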

Additional observations from a re-analysis of the deposited data

Results flagged for a closer look

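The chidamide effect differed between the lines, by the interaction term in limma on log2(FPKM + 1), for 7 of the 9 ligand genes tested, each with a negative value, against 21.7% of all genes with a negative and 27.2% with a positive called value. The Raji-4RH effect minus the Raji effect was −1.62 for ICAM1, which rose in Raji and fell in Raji-4RH, and −1.37 for CD48, which fell in Raji-4RH. The small rise of CD48 in Raji (0.14, adjusted p = 0.0471, limma) lost its call under several alternatives. The difference of effects was −0.89 for CD40, −0.60 for CD86 and −0.47 for CD70, the last of which lost the call after quantile normalization (−0.27, adjusted p = 0.0527). For CD274 it was −0.89 and for CD80 −0.45, and these 2 lost the call on other scales, where CD80 took the other sign (0.15 with voom on recovered reads). CD274 also passed the level filter only through the Raji chidamide libraries.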

How the results depend on the processing

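Of 805 member values under alternatives, 773 kept direction and side of the threshold, 21 lost the call, 8 gained it and 3 turned direction. The 3 were CD274 in Raji-4RH (−0.036) and the CD58 interaction (−0.073), both after quantile normalization, and the CD80 interaction (0.15) with voom. Requiring a log2 change of at least 1 left 3 member calls for chidamide in Raji-4RH, 2 for the interaction and 4 for the lines in DMSO, by construction. Leaving out each library gave 9 member calls for chidamide in Raji-4RH, 6 to 9 in Raji, 6 to 8 for the interaction, 7 to 8 for the lines in DMSO and 9 in chidamide. A left-out library leaves a lone sample, which is assumed to vary like the other groups. The cause of these changes was not tested.

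Deviations of libraries with the same replicate number correlated across genes at −0.28 to 0.17. These values differ in sign between groups and cannot show whether some samples were paired. With a replicate block 9 members were called in Raji-4RH, 7 in Raji, 7 for the interaction, 8 for the lines in DMSO and 9 in chidamide, and the 1 member call that changed was CD48 in Raji (adjusted p = 0.0758). Crossed numbers were tried only for the lines in DMSO and gave 8 calls. Depth limits CD274 and ULBP1, with 2 to 18 reads per DMSO library for the first and 0 to 10 per library for the second.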
